A study of Mus musculus with 16 samples.

Results

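The glycolysis and hypoxia genes were a list of 35 genes named by symbol, from the glucose transporter Slc2a1 through the enzymes of glycolysis and the exporters of lactate to Hif1a, its prolyl hydroxylases and genes known to respond to low oxygen. The symbols were matched to the probe sets of the arrays, and 33 of the 35 had a probe set, out of 19505 genes measured in all. Gpi1 and Eno1 had none under these symbols and were left out. The related gene Eno1b had a probe set and was read in a separate list. RNA came from bone marrow-derived macrophages (BMDM) of adult female mice, either wild-type (WT, Camkk2 +/+) or Camkk2-/-, a whole-body knockout of the calcium/calmodulin-dependent kinase kinase CaMKK2, a kinase upstream of AMPK. Marrow cells of both genotypes were cultured for 5 days on ultra-low attachment plates in high-glucose medium with 30% medium conditioned by L929 fibroblasts, which secrete the growth factor CSF1 that macrophages need. Cultures with regular medium (RM) gave RM-BMDM. Cultures with added tumor-conditioned medium (TCM) of E0771, a mouse mammary tumor line, gave TCM-BMDM. TCM made up 20% by the sample labels, while the study's methods give another share. By these methods, RM cultures received an equal volume of RPMI medium with serum, of the recipe in which E0771 was grown. TCM was medium of that recipe after days on E0771 cells. Each of the 4 groups, WT RM, Camkk2-/- RM, WT TCM and Camkk2-/- TCM, had 4 arrays, called replicates 1 to 4. The sources used here do not give the oxygen level of the cultures, and marrow of several mice per genotype was used without a statement of which mice went into which replicate.

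Glycolysis splits glucose to pyruvate in the cytosol, and lactate dehydrogenase then turns pyruvate into lactate, which leaves the cell through monocarboxylate transporters. Macrophages activated by inflammatory signals are known for a high glycolytic flux. The transcription factor HIF-1 raises the genes of glucose uptake, glycolysis and lactate export, and prolyl hydroxylases of the Egln family mark its alpha subunit for degradation when oxygen is present, so that the abundance of HIF-1 alpha protein is set largely after transcription and is not measured by the level of Hif1a RNA.

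Camkk2 was lower in both groups labelled as its knockout. In RM the Camkk2 signal was 9.59 ± 0.34 log2 units in WT and 6.74 ± 0.67 in Camkk2-/- BMDM (mean and SD over 4 arrays here and below), and in TCM it was 9.51 ± 0.25 against 7.65 ± 0.46. Which part of the gene the deletion removes was not set against the probe set. Of the macrophage markers 9 of 9 lay above the background of 5.37, the median of 23 control probe sets that match no gene of the mouse. Of the lymphocyte markers 3 of 7 had a mean above it (Cd79a, Cd8a and Klrb1c), while Cd3e, Cd3d, Ms4a1 and Ncr1 lay below. Of the stromal and epithelial markers 2 of 7 lay above it (Col1a1 and Cdh1), of the dendritic cell markers 1 of 6 (Siglech) and of the erythroid markers 1 of 3 (Slc4a1). With TCM, 2.21% of all genes passed as higher in WT and 6.13% in Camkk2-/- BMDM, and 0.697% and 5.37% as lower. Markers of neutrophils and of inflammatory monocytes moved with the medium: 10 of 15 neutrophil markers passed as higher in TCM in WT BMDM and 9 of 15 in Camkk2-/- BMDM, and 5 of 6 and 4 of 6 monocyte markers. Their mean signal, relative to the mean of each gene over the 16 arrays, ran from -1.62 to -0.94 in WT RM, from -1.36 to -0.40 in Camkk2-/- RM, from -0.17 to 1.01 in WT TCM and from 0.86 to 1.99 in Camkk2-/- TCM for neutrophils, with Camp the one gene of that list below background. For inflammatory monocytes the same measure ran from -2.58 to -1.20, from -1.63 to -0.40, from -0.48 to 1.69 and from 1.39 to 2.44. Macrophage markers moved as well. In Camkk2-/- BMDM 4 of 9 fell with TCM, Adgre1 (F4/80) by 1.15, Csf1r by 0.81, Itgam (CD11b) by 0.54 and C1qb by 0.53 on the log2 scale, and Fcgr1 rose by 1.53. In WT BMDM Fcgr1 rose by 1.22 and none of the 9 passed as lower (limma; 0 lower at an unadjusted p under 0.05). None of the 9 passed the test of a difference between the genotypes in the response to TCM. At an unadjusted p under 0.05 in that limma test, 5 of the 9 were on the negative side, where 4.69% of all genes were. The mean of the macrophage markers ran from -0.48 to -0.02 in WT RM, from 0.03 to 0.37 in Camkk2-/- RM, from -0.03 to 0.08 in WT TCM and from -0.20 to 0.11 in Camkk2-/- TCM. Cdh1, which encodes E-cadherin, rose with TCM by 1.73 in Camkk2-/- BMDM (adjusted p = 0.00025). The part of such cells in the results below was not tested, and in RNA from whole cultures fewer cells of a type and less RNA per cell cannot be told apart. By flow cytometry the study describes its BMDM as mostly positive for CD11b and F4/80 and negative for Ly6C, without a value per group. At the RNA level Ly6c2, one of the monocyte markers, had means of 11.78 in WT RM, 13.25 in Camkk2-/- RM, 15.73 in WT TCM and 17.52 in Camkk2-/- TCM. It rose with TCM by 3.95 and 4.27 (limma, adjusted p = 0.00013 and 8.5e-06). Among the 33 members, 30 had a mean signal above background. The other members, Eno2, Ddit4 and Adm, lay below it, so that their differences are differences of a signal near background.

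TCM raised 6 of the 33 genes in WT BMDM and 6 of 33 in Camkk2-/- BMDM, and lowered none of them in either genotype at an adjusted p under 0.05 (limma, Benjamini-Hochberg over all 19505 genes). At an unadjusted p under 0.05, 11 were higher and 3 lower in WT, where 9.04% and 5.11% of all genes were, and 9 were higher and 3 lower in Camkk2-/- BMDM, where 12.2% and 11.8% of all genes were. The 6 genes that passed the adjusted threshold in WT BMDM were Slc2a1, Hk2, Pfkl, Pfkfb3, Egln3 and P4ha1, against a background of 2.91% of all genes called, 2.21% higher and 0.697% lower. The 6 genes in Camkk2-/- BMDM were Pfkl, Slc16a3, Pfkfb3, Egln3, Bnip3 and P4ha1, against 11.5% of all genes called, 6.13% higher and 5.37% lower. Pfkl, Pfkfb3, Egln3 and P4ha1 were raised in both genotypes, 66.7% of the calls of each, while Slc2a1 and Hk2 passed in WT alone and Slc16a3 and Bnip3 in Camkk2-/- alone. None of the 33 genes passed the test of a difference between the genotypes in the response to TCM (adjusted p from 0.53 to 1.00, where 0.144% of all genes passed, 0.0513% on the positive and 0.0923% on the negative side, and 1 member, Slc2a1, had an unadjusted p under 0.05), so a gene that passed in one genotype is not shown to differ from the other. Between genotypes, none of the 33 passed in RM, and in TCM Pfkfb3 was higher and P4ha2 lower in Camkk2-/- BMDM. The count raised in WT moved with single arrays: it was 2 without WT RM replicate 4 or without WT TCM replicate 1, and 3 without WT RM replicate 1 or 3 or without WT TCM replicate 2 or 4. The count lowered in Camkk2-/- BMDM was 2 without Camkk2-/- TCM replicate 1, and 1 without WT RM replicate 1 or 2 or without WT TCM replicate 1 or 3. The map of all members by array shows these genes beside the others.

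**Figure D1:**
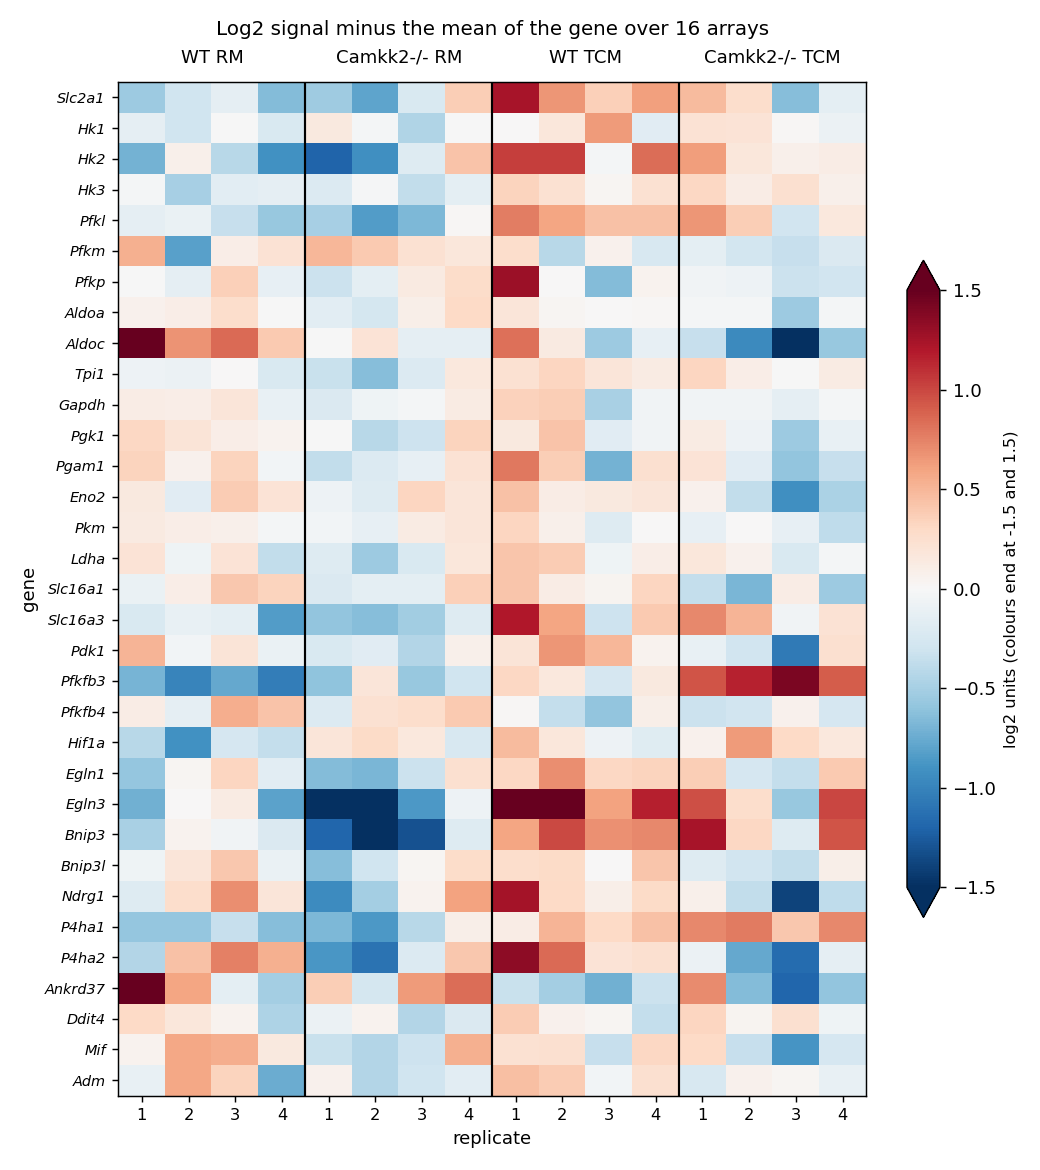
Log2 signal of each of the 33 genes (vertical axis) in each of the 16 arrays (horizontal axis, replicates 1 to 4 in each group), minus the mean of that gene over the 16 arrays. Red is above and blue below the mean, with colours ending at -1.5 and 1.5. Pfkfb3 and P4ha1 turn from mostly blue in RM to mostly red in TCM, and the lower glycolytic genes from Gapdh to Pkm stay pale in most arrays.

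The sequences around the start sites of the genes that TCM raised in both genotypes, and of P4ha2, are shown because these genes carry the differences described below. They are RefSeq windows of mouse build GRCm38.p6, each from 250 bases before to 50 bases after an annotated start, written 5′ to 3′ on the strand of the gene. Capitals mark the letters ACGTG and GCGTG, the core to which HIF-1 is known to bind, searched on both strands, so that CACGT and CACGC are their reverse complements and CACGTG holds ACGTG on both strands, overlapping.
Pfkfb3 promoter, chr2:11553880-11554179, minus strand: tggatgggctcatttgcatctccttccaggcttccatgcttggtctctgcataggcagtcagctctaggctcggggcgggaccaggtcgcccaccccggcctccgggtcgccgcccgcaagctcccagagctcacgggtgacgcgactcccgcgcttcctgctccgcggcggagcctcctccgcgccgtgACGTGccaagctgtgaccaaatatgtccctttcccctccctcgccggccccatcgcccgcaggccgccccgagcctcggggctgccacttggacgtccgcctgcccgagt
Pfkfb3 promoter, chr2:11502041-11502340, minus strand: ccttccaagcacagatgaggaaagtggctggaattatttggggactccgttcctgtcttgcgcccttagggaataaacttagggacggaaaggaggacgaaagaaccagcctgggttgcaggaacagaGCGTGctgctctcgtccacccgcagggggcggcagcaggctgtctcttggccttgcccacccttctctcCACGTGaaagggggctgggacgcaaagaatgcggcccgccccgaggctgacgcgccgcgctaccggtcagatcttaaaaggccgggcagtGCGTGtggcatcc
P4ha1 promoter, chr10:59323046-59323345, plus strand: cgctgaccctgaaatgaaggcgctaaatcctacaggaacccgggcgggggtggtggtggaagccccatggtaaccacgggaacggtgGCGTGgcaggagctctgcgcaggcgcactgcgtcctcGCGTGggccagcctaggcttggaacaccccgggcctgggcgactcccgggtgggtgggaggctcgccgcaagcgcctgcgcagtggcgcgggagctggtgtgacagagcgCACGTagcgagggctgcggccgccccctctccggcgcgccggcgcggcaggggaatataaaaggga
Pfkl promoter, chr10:78009758-78010057, minus strand: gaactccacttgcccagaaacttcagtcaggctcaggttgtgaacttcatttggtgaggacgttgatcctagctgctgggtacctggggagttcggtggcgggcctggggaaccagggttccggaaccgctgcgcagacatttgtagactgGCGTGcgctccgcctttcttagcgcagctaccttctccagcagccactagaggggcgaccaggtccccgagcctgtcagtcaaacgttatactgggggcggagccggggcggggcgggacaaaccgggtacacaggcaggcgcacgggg
Egln3 promoter, chr12:54203825-54204124, minus strand: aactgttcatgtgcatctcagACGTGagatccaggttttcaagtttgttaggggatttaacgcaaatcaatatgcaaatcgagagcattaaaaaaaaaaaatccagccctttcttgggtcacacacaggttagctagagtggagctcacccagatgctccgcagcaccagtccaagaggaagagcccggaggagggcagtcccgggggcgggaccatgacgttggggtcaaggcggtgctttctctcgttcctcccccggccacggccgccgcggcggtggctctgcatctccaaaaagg
P4ha2 promoter, chr11:54100674-54100973, plus strand: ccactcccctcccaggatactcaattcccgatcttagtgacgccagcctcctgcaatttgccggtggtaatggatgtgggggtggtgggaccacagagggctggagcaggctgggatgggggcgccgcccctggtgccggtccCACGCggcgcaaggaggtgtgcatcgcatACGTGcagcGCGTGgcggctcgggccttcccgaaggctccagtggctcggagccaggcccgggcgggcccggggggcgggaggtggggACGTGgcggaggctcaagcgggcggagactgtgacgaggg
The Pfkfb3 window at the upstream start held 1 match and the one at the downstream start 4. P4ha1 had 3 matches, P4ha2 had 4, and Pfkl and Egln3 had 1 each.

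Of the 33 measured genes 31 had such a window, and Bnip3l and Ndrg1 had none in the table. The letters stood in 29 of the 31 genes (93.5%), and in 12628 of all 27025 genes with a window (46.7%). Counted by window, they stood in 35 of 42 windows of the members (83.3%) and in 14380 of 32851 windows of all genes (43.8%). The 9 genes called in at least 1 comparison all had a match, as did 20 of the 22 that were not called (90.9%). Tpi1 and Eno2 were those without a match. The list was made of glycolysis genes and genes known to respond to low oxygen, so a share above that of all genes was favoured by the choice. The base content of the windows was not compared. A match describes letters in a window and is no measure of binding.

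Of the 4 genes of glucose uptake and trapping, TCM raised 2 in WT BMDM. Slc2a1, the transporter GLUT1, and Hk2, a hexokinase that phosphorylates glucose in the first step of glycolysis, both rose. Slc2a1 read 13.95, 14.20, 14.36 and 13.84 log2 units in replicates 1 to 4 of WT RM-BMDM, and 15.73, 15.16, 14.85 and 15.11 in WT TCM-BMDM. Every WT TCM array lay above every WT RM array, a difference of 1.12 ± 0.26 (log2, SE; 2.18-fold; adjusted p = 0.018). The Camkk2-/- arrays read 13.96, 13.71, 14.27 and 14.86 in RM and 14.97, 14.76, 13.86 and 14.35 in TCM, and the groups overlapped, with a difference of 0.28 ± 0.26 (adjusted p = 0.56). Hk2 read 9.47, 10.25, 9.76 and 9.27 in WT RM and 11.21, 11.21, 10.15 and 11.01 in WT TCM. The lowest WT TCM array, replicate 3, lay below the highest WT RM array, and the difference was 1.21 ± 0.31 (2.31-fold; adjusted p = 0.036). In Camkk2-/- BMDM Hk2 read 8.97, 9.25, 9.98 and 10.60 in RM and 10.80, 10.34, 10.25 and 10.29 in TCM. Replicate 4 in RM lay above 3 of the TCM arrays, and the difference of 0.72 ± 0.31 did not pass (adjusted p = 0.15). The other hexokinases, Hk1 and the myeloid-enriched Hk3, differed by 0.33 ± 0.18 and 0.40 ± 0.15 in WT and by 0.17 ± 0.18 and 0.36 ± 0.15 in Camkk2-/- BMDM (adjusted p from 0.13 to 0.62). For Hk3 the TCM arrays lay above all RM arrays in both genotypes, at 12.23 to 12.54 against 11.71 to 12.17 in WT and at 12.28 to 12.52 against 11.83 to 12.19 in Camkk2-/- BMDM. The calls of Slc2a1 and Hk2 in WT were lost under 5 and 10 of 27 alternatives, and without WT TCM replicate 1 the adjusted p of the WT difference was above 0.05 for both.

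**Figure D2:**
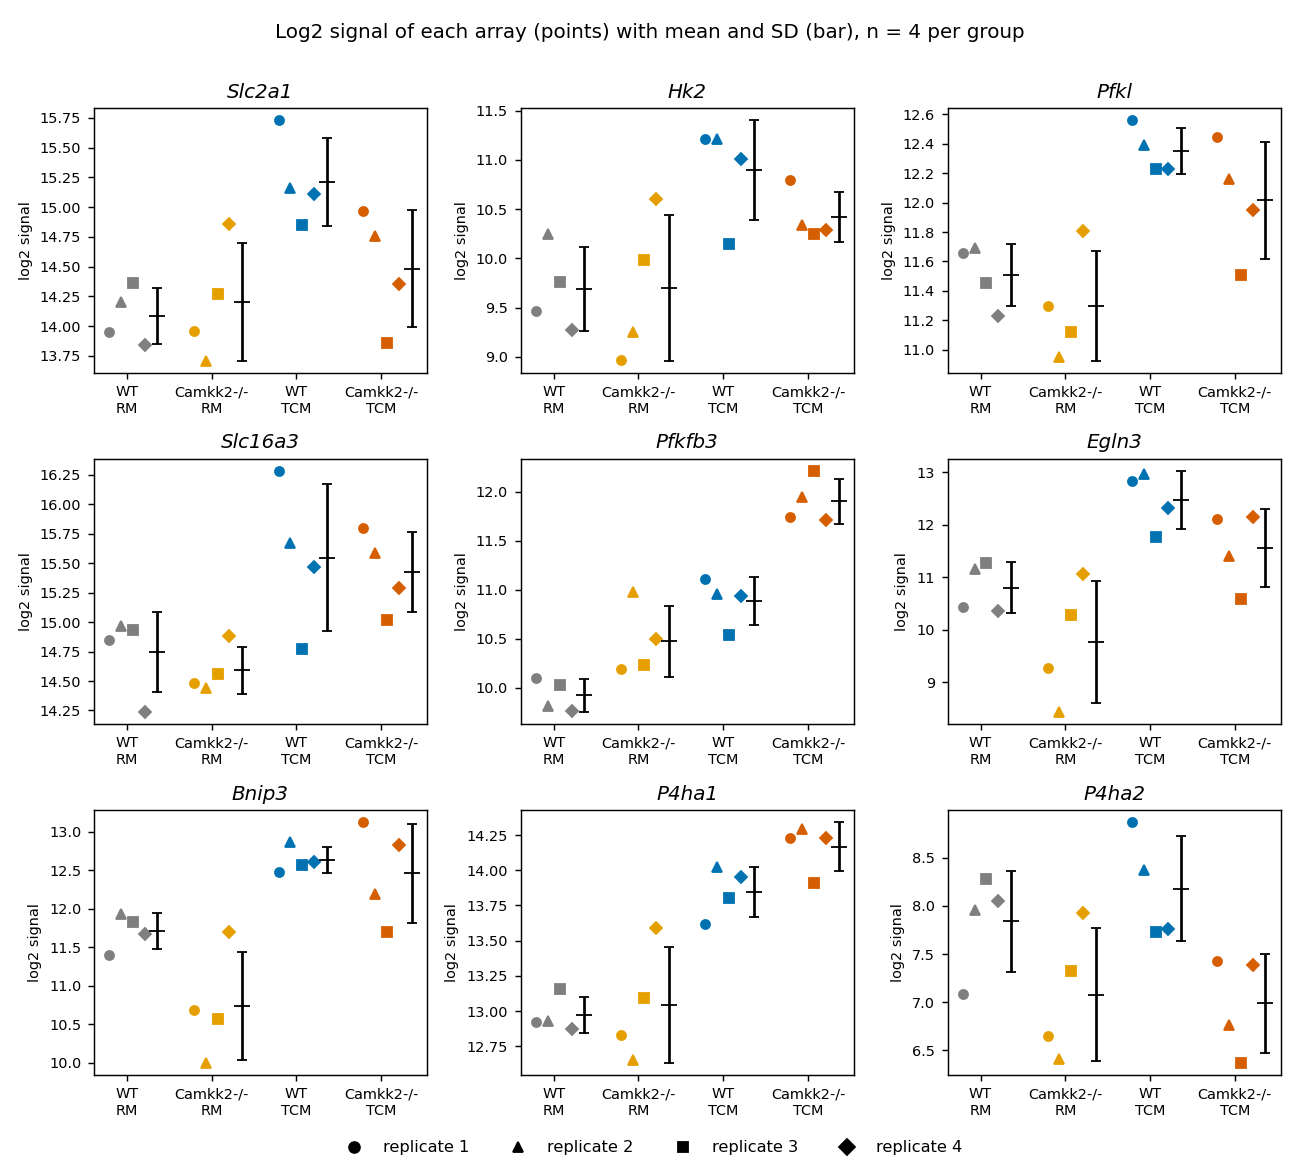
Log2 signal (vertical axis, one scale per gene) of the 9 genes that passed in at least 1 comparison, in the 4 groups of 4 arrays. Symbols are single arrays, marked by replicate, and the bar beside them is the mean with the SD. The 4 Camkk2-/- TCM arrays of Pfkfb3 sit between 11.71 and 12.21, above all other arrays of that gene.

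Upper glycolysis, from phosphofructokinase to triose phosphate isomerase, had 1 gene raised of 6 measured in each genotype. Pfkl is the liver-type subunit of phosphofructokinase, the main point of control of the pathway. It read 11.66, 11.69, 11.45 and 11.23 in WT RM and 12.56, 12.39, 12.23 and 12.23 in WT TCM, without overlap, a difference of 0.85 ± 0.21 (1.80-fold; adjusted p = 0.028). The Camkk2-/- arrays read 11.30, 10.95, 11.12 and 11.81 in RM and 12.45, 12.16, 11.51 and 11.95 in TCM. TCM replicate 3 lay below RM replicate 4 there, and the difference was 0.72 ± 0.21 (1.65-fold; adjusted p = 0.026). The calls were lost under 9 of 27 alternatives in WT and 8 of 27 in Camkk2-/- BMDM. The other phosphofructokinase subunits did not pass. Pfkp, the platelet-type subunit, differed by 0.15 ± 0.28 in WT and -0.17 ± 0.28 in Camkk2-/- BMDM, and Pfkm, the muscle-type subunit, by -0.09 ± 0.22 and -0.57 ± 0.22 (adjusted p = 0.92 and 0.11). In Camkk2-/- BMDM every TCM array of Pfkm, at 7.69 to 7.89, lay below every RM array, at 8.21 to 8.54.

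Of the aldolases, which split fructose 1,6-bisphosphate, Aldoa differed little with TCM (-0.05 ± 0.16 in WT and -0.15 ± 0.16 in Camkk2-/- BMDM) and Aldoc had the most negative differences of the glycolytic enzymes, none past the threshold. Aldoc read 13.44, 12.60, 12.78 and 12.32 in WT RM, 11.92, 12.14, 11.80 and 11.79 in Camkk2-/- RM, 12.76, 12.06, 11.39 and 11.81 in WT TCM, and 11.59, 10.98, 10.14 and 11.36 in Camkk2-/- TCM. WT RM was the highest group and Camkk2-/- TCM the lowest, and each of them stood clear of Camkk2-/- RM. TCM differed from RM by -0.78 ± 0.30 in WT (adjusted p = 0.21) and -0.90 ± 0.30 in Camkk2-/- BMDM (adjusted p = 0.059), and Camkk2-/- from WT by -0.88 ± 0.30 in RM (adjusted p = 0.31) and -0.99 ± 0.30 in TCM (adjusted p = 0.068). Tpi1, triose phosphate isomerase, differed by 0.31 ± 0.16 in WT and 0.39 ± 0.16 in Camkk2-/- BMDM (adjusted p = 0.40 and 0.13), and its WT TCM arrays, 16.13 to 16.33, lay above all WT RM arrays, 15.77 to 16.01.

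The enzymes of lower glycolysis, which carry triose phosphates to pyruvate, differed between TCM and RM in WT BMDM by less than the SE of the difference. Gapdh, Pgk1, Pgam1, Eno2 and Pkm differed by -0.08 to 0.08, with adjusted p from 0.92 to 1.00, and the 95% interval of the largest of these errors, for Pgam1, ran from -0.52 to 0.51. Among Camkk2-/- BMDM the differences ran from -0.49 for Eno2 to -0.03 for Gapdh (adjusted p from 0.12 to 0.95). Gapdh, often taken as a reference gene, read 16.61 to 17.46 over the WT TCM arrays and 16.96 to 17.06 over the Camkk2-/- TCM arrays. Gapdh, Ldha and other glycolytic genes are known for processed pseudogenes of nearly the same sequence, so their probe sets may also read such copies and their values are uncertain to that extent.

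Among the genes of lactate and pyruvate, Slc16a3 rose with TCM in Camkk2-/- BMDM. It encodes MCT4, the transporter that exports lactate from glycolytic cells. It read 14.48, 14.44, 14.56 and 14.88 in Camkk2-/- RM and 15.80, 15.59, 15.02 and 15.29 in Camkk2-/- TCM, without overlap, a difference of 0.83 ± 0.26 (1.78-fold; adjusted p = 0.038), a call lost under 8 of 27 alternatives. In WT BMDM it read 14.85, 14.97, 14.93 and 14.24 in RM and 16.28, 15.67, 14.77 and 15.47 in TCM. TCM replicate 3 lay below 3 of the RM arrays, and the difference of 0.80 ± 0.26, of nearly the same size, did not pass (adjusted p = 0.11). Ldha, the lactate dehydrogenase subunit that favours lactate formation, differed by 0.22 ± 0.18 in WT and 0.20 ± 0.18 in Camkk2-/- BMDM. Pdk1, the kinase that holds pyruvate dehydrogenase inactive, differed by 0.21 ± 0.23 and -0.12 ± 0.23, and Slc16a1, the transporter MCT1, by 0.03 ± 0.19 and -0.33 ± 0.19, with adjusted p from 0.30 to 0.97 for the 3 genes.

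Pfkfb3 stood out among the regulators of fructose 2,6-bisphosphate, the allosteric activator of phosphofructokinase. Its product is a bifunctional enzyme with mostly kinase activity, which makes this activator. It read 10.10, 9.81, 10.03 and 9.76 in WT RM, 10.19, 10.98, 10.23 and 10.50 in Camkk2-/- RM, 11.11, 10.96, 10.54 and 10.94 in WT TCM, and 11.74, 11.95, 12.21 and 11.71 in Camkk2-/- TCM. The WT RM arrays were lowest and the Camkk2-/- TCM arrays highest, with no overlap between media in either genotype or between genotypes in either medium. TCM raised Pfkfb3 by 0.97 ± 0.19 in WT (1.95-fold; adjusted p = 0.0053) and by 1.43 ± 0.19 in Camkk2-/- BMDM (2.70-fold; adjusted p = 2.1e-05). In TCM it was higher in Camkk2-/- than in WT BMDM by 1.02 ± 0.19 (2.02-fold; adjusted p = 0.0024). The difference in RM, 0.55 ± 0.19, did not pass (adjusted p = 0.31), and the test of the difference between both responses gave 0.47 ± 0.27 (adjusted p = 0.71). Its 3 calls held under all 27 alternatives. Pfkfb4, a second gene of this family, went the other way with TCM without passing, by -0.45 ± 0.19 in WT and -0.36 ± 0.19 in Camkk2-/- BMDM (adjusted p = 0.28 and 0.26).

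**Figure D3:**
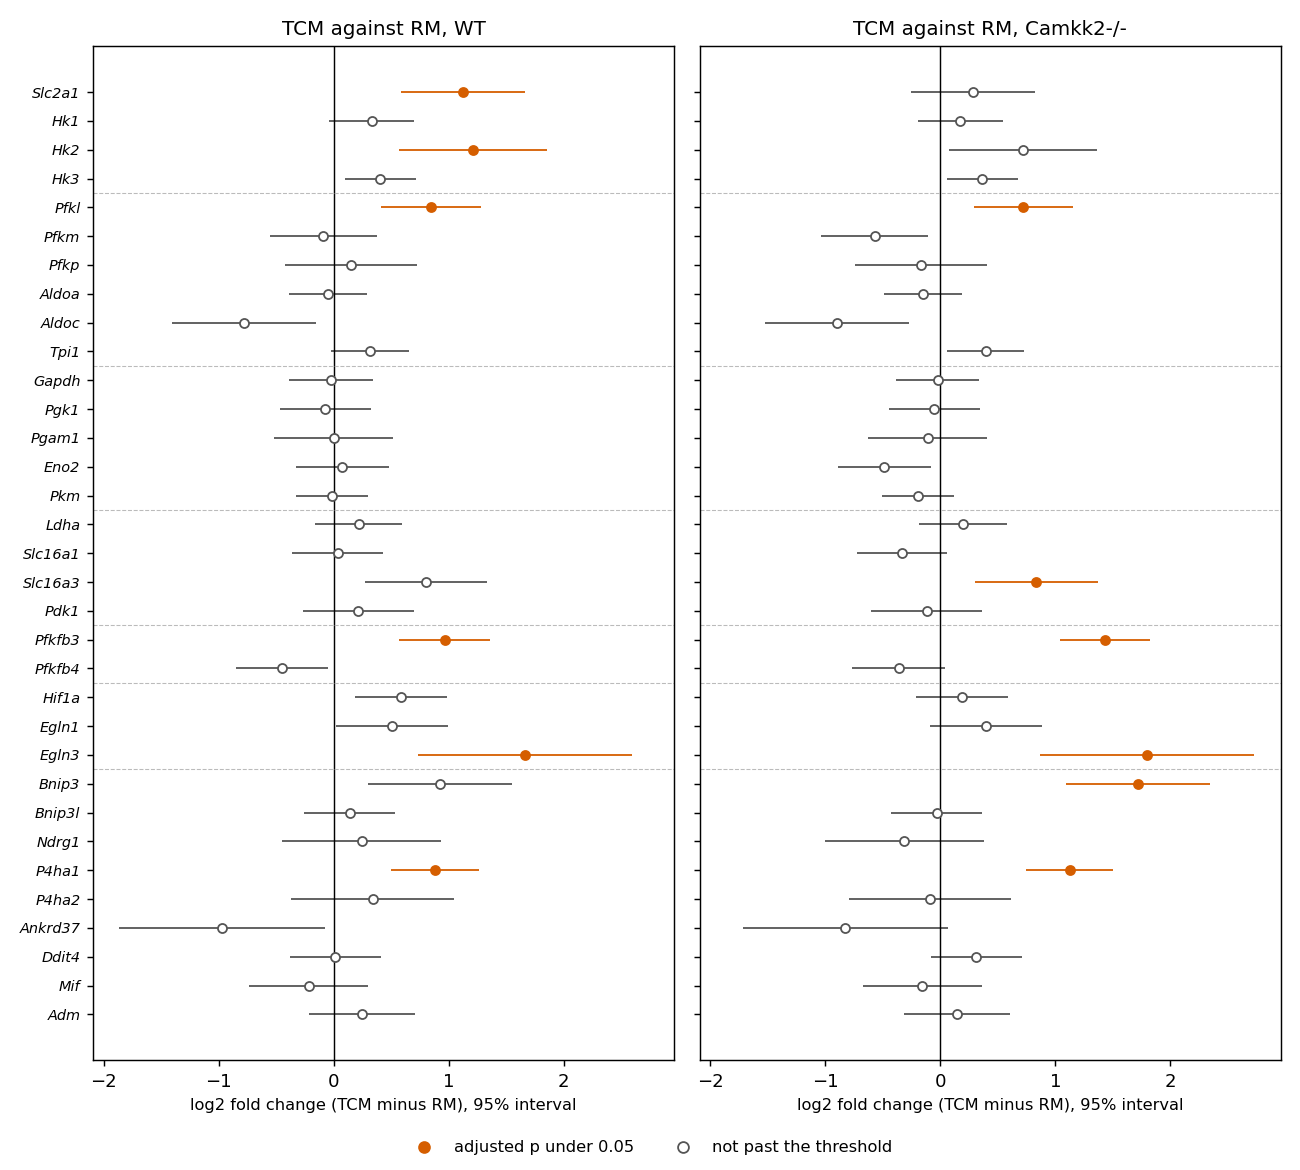
Difference between TCM and RM (horizontal axis, log2 units, with the 95% interval of the fit) for each of the 33 genes (vertical axis, dashed lines between roles), in WT BMDM on the left and Camkk2-/- BMDM on the right. Filled points are the 6 genes of each panel with an adjusted p under 0.05, all to the right of 0, and the genes from Gapdh to Pkm lie near 0 in WT.

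Egln3 had the largest differences with TCM of the 33 genes in both genotypes. It encodes PHD3, a HIF prolyl hydroxylase that is itself known as a HIF target. It read 10.43, 11.16, 11.28 and 10.35 in WT RM and 12.83, 12.97, 11.76 and 12.32 in WT TCM, without overlap, a difference of 1.66 ± 0.45 (3.17-fold; adjusted p = 0.048). The Camkk2-/- arrays read 9.27, 8.44, 10.29 and 11.07 in RM and 12.12, 11.41, 10.58 and 12.15 in TCM. RM replicate 4 lay above TCM replicate 3 there, and the difference was 1.79 ± 0.45 (3.47-fold; adjusted p = 0.01). The WT call lay just inside the threshold and was lost under 18 of 27 alternatives, with adjusted p up to 0.16, while the Camkk2-/- call was lost under 1, the stricter threshold of 0.01. Egln1, which encodes the main oxygen sensor PHD2, differed by 0.51 ± 0.23 in WT and 0.39 ± 0.23 in Camkk2-/- BMDM (adjusted p = 0.32 and 0.33).

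Hif1a, the oxygen-regulated subunit of HIF-1, did not pass in any comparison. It read 13.01, 12.52, 13.17 and 13.07 in WT RM, 13.61, 13.71, 13.59 and 13.19 in Camkk2-/- RM, 13.90, 13.60, 13.35 and 13.24 in WT TCM, and 13.49, 14.06, 13.73 and 13.58 in Camkk2-/- TCM. The WT RM arrays were the lowest and lay below all arrays of both Camkk2-/- RM and WT TCM. The differences were 0.58 ± 0.19 for TCM against RM in WT (adjusted p = 0.13), 0.19 ± 0.19 in Camkk2-/- BMDM (adjusted p = 0.61), and 0.59 ± 0.19 for Camkk2-/- against WT in RM (adjusted p = 0.26).

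Of the 9 other hypoxia-responsive genes, P4ha1 rose with TCM in both genotypes and Bnip3 in Camkk2-/- BMDM. P4ha1 encodes a catalytic subunit of collagen prolyl 4-hydroxylase. It read 12.92, 12.93, 13.16 and 12.87 in WT RM and 13.62, 14.02, 13.80 and 13.95 in WT TCM, and 12.83, 12.65, 13.09 and 13.59 in Camkk2-/- RM and 14.23, 14.29, 13.91 and 14.23 in Camkk2-/- TCM. The media did not overlap in either genotype, and the differences were 0.88 ± 0.18 in WT (1.84-fold; adjusted p = 0.0091) and 1.12 ± 0.18 in Camkk2-/- BMDM (2.18-fold; adjusted p = 0.00022), both kept under all 27 alternatives. Bnip3, which encodes a mitochondrial protein of mitophagy and cell death, read 10.69, 10.00, 10.57 and 11.69 in Camkk2-/- RM and 13.12, 12.19, 11.69 and 12.83 in Camkk2-/- TCM. RM replicate 4 and TCM replicate 3 both read 11.69, and the difference was 1.72 ± 0.30 (3.30-fold; adjusted p = 0.00046), kept under all 27 alternatives. In WT BMDM Bnip3 read 11.40, 11.93, 11.83 and 11.67 in RM and 12.47, 12.87, 12.57 and 12.60 in TCM. These arrays did not overlap, yet the difference of 0.92 ± 0.30 did not pass (adjusted p = 0.12), and neither did the test of a larger response in Camkk2-/- BMDM (0.80 ± 0.42; adjusted p = 0.67).

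The remaining hypoxia-responsive genes did not pass with TCM. Bnip3l, a relative of Bnip3, Ndrg1, a stress-responsive gene, and P4ha2, a second collagen prolyl hydroxylase, differed by 0.14 to 0.34 in WT and by -0.31 to -0.03 in Camkk2-/- BMDM. Ankrd37, a HIF target, differed by -0.97 ± 0.43 in WT and -0.83 ± 0.43 in Camkk2-/- BMDM (adjusted p = 0.30 and 0.25). Its WT RM arrays spread widely, from 7.69 to 10.26, against 7.48 to 7.88 in WT TCM. The cytokine gene Mif differed by -0.22 ± 0.25 and -0.16 ± 0.25, and Adm and Ddit4, both below background, by 0.01 to 0.31.

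Between genotypes, Camkk2-/- RM-BMDM and WT RM-BMDM differed in none of the 33 genes at the threshold, where 0.738% of all genes were called, 0.446% higher and 0.292% lower. At an unadjusted p under 0.05, 2 genes were higher (Pfkfb3 and Hif1a) and 4 lower (Aldoc, Egln3, Bnip3 and P4ha2), where 4.82% of all genes were higher and 3.38% lower. Of the monocyte markers 1 of 6, Hp, was higher in Camkk2-/- RM-BMDM, by 2.11 (adjusted p = 0.02), and its part was not tested. The smallest adjusted p was 0.21, for Bnip3, at -0.97 ± 0.30. Egln3 differed by -1.04 ± 0.45 (adjusted p = 0.54), over Camkk2-/- RM arrays that spread from 8.44 to 11.07. In sign, 25 of the 33 differences were negative (75.8%, against 46.0% of all genes), with a median of -0.16 against 0.02 over all genes. Without Camkk2-/- RM replicate 4, which had the highest signal of its group for 24 of the 33 genes, 1 gene passed as lower, Bnip3.

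In TCM, P4ha2 was lower and Pfkfb3 higher in Camkk2-/- than in WT BMDM, against 4.49% of all genes called, 1.79% lower and 2.70% higher. P4ha2 read 8.87, 8.37, 7.73 and 7.76 in WT TCM and 7.43, 6.76, 6.37 and 7.39 in Camkk2-/- TCM. All Camkk2-/- TCM arrays lay below all WT TCM arrays, with a difference of -1.19 ± 0.34 (adjusted p = 0.049). In RM it read 7.08, 7.96, 8.28 and 8.05 in WT and 6.65, 6.41, 7.32 and 7.93 in Camkk2-/- BMDM, groups that overlapped, with a difference of -0.77 ± 0.34 (adjusted p = 0.55). The P4ha2 call in TCM lay just inside the threshold and was lost under 15 of 27 alternatives, with adjusted p up to 0.26. The number of genes called lower was 0 without WT RM replicate 2, 3 or 4, Camkk2-/- RM replicate 1 or 3, WT TCM replicate 1 or 2, or Camkk2-/- TCM replicate 2, was 2 when WT TCM replicate 3 or replicate 4 of Camkk2-/- TCM was left out, and was 3 without Camkk2-/- TCM replicate 1. Markers of neutrophils differed between these groups as well, with 4 of 15 higher in Camkk2-/- TCM-BMDM. So did 1 of 6 monocyte markers, Plac8, higher by 3.41 (adjusted p = 4.2e-05), 1 of 9 macrophage markers, Adgre1, at -0.58 (adjusted p = 0.029), 1 of 6 dendritic cell markers, Siglech, higher by 1.51 (adjusted p = 0.011), and 2 of 7 stromal and epithelial markers, Cdh1, higher by 2.34 (adjusted p = 5.4e-05), and Dcn, higher by 0.93 (adjusted p = 0.0059) at a signal below background. The part of these cells in the results was not tested.

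Of the 33 differences in TCM, 27 were negative (81.8%, against 52.8% of all genes), with a median of -0.24 against -0.02 over all genes. At an unadjusted p under 0.05, 8 genes were lower in Camkk2-/- TCM-BMDM: Slc2a1, Aldoc, Eno2, Slc16a1, Pdk1, Bnip3l, Ndrg1 and P4ha2. Only Pfkfb3 was higher at that threshold, where 7.66% of all genes were lower and 7.60% higher. Slc2a1 differed by -0.73 ± 0.26 (adjusted p = 0.14), Pdk1 by -0.66 ± 0.23 (adjusted p = 0.13), Slc16a1 by -0.59 ± 0.19 (adjusted p = 0.092) and Ndrg1 by -0.99 ± 0.33 (adjusted p = 0.11). For Ndrg1 the Camkk2-/- TCM arrays, 11.66 to 13.12, lay below all WT TCM arrays, 13.13 to 14.29. Eno2 differed by -0.65 ± 0.19 (adjusted p = 0.064), between values of 4.21 to 5.57, around or below background. The members of lower glycolysis were all on the negative side, from -0.65 for Eno2 to -0.11 for Gapdh, and none passed.

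**Figure D4:**
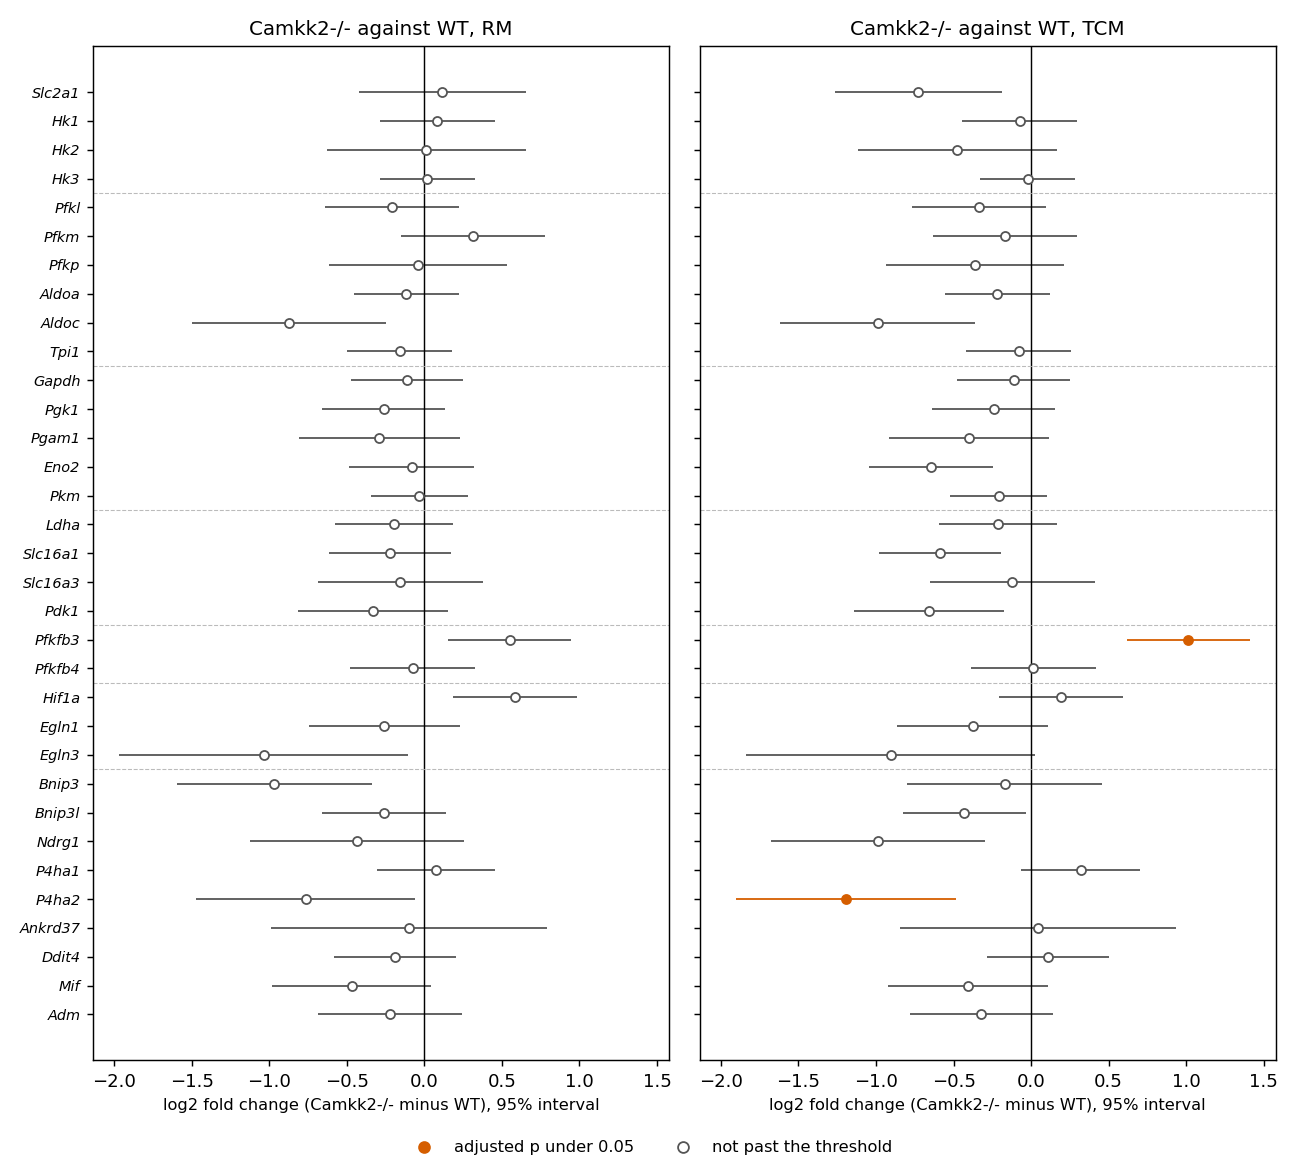
Difference between Camkk2-/- and WT BMDM (horizontal axis, log2 units, with the 95% interval of the fit) for each of the 33 genes (vertical axis), in RM on the left and TCM on the right. Filled points have an adjusted p under 0.05. Most points lie left of 0 in both panels (25 in RM and 27 in TCM), and Pfkfb3 lies right of 0 in both.

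Counted by arrays that do not overlap, TCM lay above RM for 9 of the 33 genes in WT (Slc2a1, Hk3, Pfkl, Tpi1, Pfkfb3, Hif1a, Egln3, Bnip3 and P4ha1), where 4.83% of all genes did so, and below RM for 0, where 2.24% did. TCM lay above RM in Camkk2-/- BMDM for 4 genes (Hk3, Slc16a3, Pfkfb3 and P4ha1; 9.48% of all genes) and below RM for 2 (Pfkm and Aldoc; 9.23%). Camkk2-/- lay above WT in RM for Pfkfb3 and Hif1a (2.61% of all genes) and below it for Aldoc (1.72%). In TCM Camkk2-/- lay above WT for Pfkfb3 (5.60%) and below it for Aldoa, Eno2, Ndrg1 and P4ha2 (5.15%). The comparisons share arrays: each group of arrays enters one comparison of media and one of genotypes, so these counts are not independent of each other.

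Averaged over the 33 genes, the log2 signal was 12.00 ± 0.14 in WT RM (11.82 to 12.17), 11.82 ± 0.26 in Camkk2-/- RM (11.60 to 12.18), 12.29 ± 0.23 in WT TCM (12.01 to 12.56) and 12.00 ± 0.23 in Camkk2-/- TCM (11.70 to 12.26). All neighbouring groups overlapped. The mean was higher in TCM by 0.29 in WT and 0.18 in Camkk2-/- BMDM, and Camkk2-/- differed from WT by -0.19 in RM and -0.30 in TCM, where the SD between arrays, pooled over the groups, was 0.22. These are descriptions with no test, since the genes were listed with results of these arrays known. The median difference with TCM was 0.22 over the members and 0.04 over all genes in WT, and -0.03 and 0.01 in Camkk2-/- BMDM, with 23 positive and 10 negative differences in WT and 16 and 17 in Camkk2-/- BMDM.

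Within a group the genes tended to be high or low together in single arrays, a count added after the values were seen. Camkk2-/- RM replicate 4 was the highest array of its group for 24 of the 33 genes, where 19.8% of all genes were highest in it, and Camkk2-/- RM replicate 2 was the lowest for 17 (21.8%). WT TCM replicate 1 was the highest for 20 (29.6%) and replicate 3 the lowest for 24 (31.9%). In Camkk2-/- TCM, replicate 1 was the highest for 20 (22.7%) and replicate 3 the lowest for 24 (24.4%), and in WT RM replicate 3 was the highest for 18 (29.7%) and replicate 4 the lowest for 20 (26.2%). Pfkfb3 was an exception in Camkk2-/- TCM, where replicate 3 was its highest array. The neutrophil and monocyte markers did not follow one direction with these arrays: they were at their group's lowest in Camkk2-/- RM replicate 4 (-1.36 and -1.63) and in WT TCM replicate 3 (-0.17 and -0.48), while the neutrophil markers were at their group's highest in Camkk2-/- TCM replicate 3 (1.99). WT TCM replicates 1 and 3 also deviated most from their group over all genes, with an SD of the deviations of 0.325 and 0.355 against 0.22 to 0.301 in the other 14 arrays. Without both, 3 of the 33 genes were raised by TCM in WT (Hk2, Pfkfb3 and P4ha1), 6 in Camkk2-/- BMDM, and none was lower in Camkk2-/- TCM-BMDM. The part of these array-wide shifts in the results was not tested.

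Genes of the same pathways outside the list were read alongside. Of 22 other glycolytic isoenzymes and regulators, none passed with TCM in WT (limma; 1 higher and 1 lower at an unadjusted p under 0.05). In Camkk2-/- BMDM Slc2a3, the transporter GLUT3, rose by 1.13 ± 0.36 (adjusted p = 0.044), and Pdk2 and the lactate dehydrogenase subunit Ldhb fell by 0.80 ± 0.19 and 0.95 ± 0.25 (adjusted p = 0.0067 and 0.015). In WT BMDM Slc2a3, Pdk2 and Ldhb differed in the same directions without passing, by 1.18 ± 0.36, -0.63 ± 0.19 and -0.48 ± 0.25 (adjusted p = 0.087, 0.083 and 0.41). Their responses were not shown to differ between genotypes (limma interaction, adjusted p from 0.83 to 0.99). Eno1b was higher in Camkk2-/- than in WT RM-BMDM by 0.85 ± 0.19 (adjusted p = 0.033) and was the one gene of this list that passed between genotypes. Its sequence is close to that of Eno1, so that its signal may include Eno1 RNA. The list's median difference with TCM was 0.06 in WT and -0.01 in Camkk2-/- BMDM. Of 16 genes of the HIF pathway itself, among them Arnt, Vhl and Egln2, none passed in any comparison with limma, with at most 2 higher and 1 lower at an unadjusted p under 0.05.

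Of 9 measured genes of the pentose phosphate pathway, which branches from glycolysis at glucose 6-phosphate, 1 fell with TCM in WT and 3 in Camkk2-/- BMDM, and none rose (limma; 0 and 1 higher at an unadjusted p under 0.05). Of all genes 0.697% fell in WT and 5.37% in Camkk2-/- BMDM. Pgd, which encodes 6-phosphogluconate dehydrogenase, fell by 0.82 ± 0.18 in WT (adjusted p = 0.013) and by 1.55 ± 0.18 in Camkk2-/- BMDM (adjusted p = 4.4e-06). Taldo1 and Prps2 fell in Camkk2-/- BMDM by 0.90 ± 0.19 and 0.62 ± 0.19 (adjusted p = 0.0025 and 0.037). In WT BMDM they differed by -0.28 ± 0.19 and -0.33 ± 0.19 without passing (adjusted p = 0.56 and 0.47). The responses of Pgd, Taldo1 and Prps2 were not shown to differ between genotypes (limma interaction, adjusted p = 0.38, 0.53 and 0.86). For Pgd the difference between both responses was -0.74 ± 0.25. Between genotypes in TCM, Pgd was lower in Camkk2-/- BMDM, with a difference of -0.91 ± 0.18 (adjusted p = 0.004). The median difference of the list with TCM was -0.25 in WT and -0.39 in Camkk2-/- BMDM. Of 10 genes of pyruvate entry into mitochondria, Pdp1, the phosphatase that activates pyruvate dehydrogenase, rose by 0.61 ± 0.15 in WT and 0.64 ± 0.15 in Camkk2-/- BMDM (adjusted p = 0.032 and 0.0069).

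Of all genes, TCM raised 2.21% and lowered 0.697% in WT, and raised 6.13% and lowered 5.37% in Camkk2-/- BMDM. Of 51 further genes known as hypoxia targets, TCM raised 8 and lowered 0 in WT BMDM (2 lower at an unadjusted p under 0.05), and raised 9 and lowered 5 in Camkk2-/- BMDM. Their median difference was 0.27 in WT and 0.12 in Camkk2-/- BMDM, beside 0.04 and 0.01 over all genes. Those raised with the smallest adjusted p in WT were Dusp1 (1.80 ± 0.27), a phosphatase of MAP kinases, Inhba (1.67 ± 0.27), a subunit of activin, the transcription factor gene Bhlhe41 (1.10 ± 0.20) and Nampt (0.82 ± 0.16), an enzyme of NAD synthesis. Those in Camkk2-/- BMDM were Inhba (2.37 ± 0.27), Nampt (1.21 ± 0.16), Egr1 (2.14 ± 0.28) and Nos2 (3.91 ± 0.52), the inducible nitric oxide synthase. Dusp1, Egr1, Nos2, Inhba and Nampt are also known to respond to inflammatory signals. Between genotypes, Plod1, a collagen lysyl hydroxylase, was lower in Camkk2-/- BMDM, with differences of -1.50 ± 0.30 in RM and -1.52 ± 0.30 in TCM (adjusted p = 0.015 and 0.004), and so was Car9, a carbonic anhydrase, with -1.23 ± 0.27 in RM (adjusted p = 0.035). In TCM, 5 of the 51 were lower in Camkk2-/- BMDM, among them Bhlhe41 (-1.35 ± 0.20) and the transferrin receptor gene Tfrc (-1.28 ± 0.30), and 2 were higher, Egr1 (1.30 ± 0.28) and Inhba. Of all genes 1.79% were lower and 2.70% higher in that comparison. The others lower in TCM were Plod1, Pam and Rora, and the 5 genes that TCM lowered in Camkk2-/- BMDM were Cxcr4, Pam, Angptl4, Mt1 and Mt2, with Inhba, Pam, Rora, Angptl4, Mt1, Mt2 and Cxcr4 named here after their values were seen.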

How the data were processed

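RNA of 16 mouse BMDM samples, 4 per group, was hybridized to Affymetrix whole-transcript arrays. The deposited table holds 1 log2 signal per probe set and array, made by the authors with Affymetrix Expression Console (version not given in the submitters' processing notes). The sources used here do not give the summarization, the normalization or the build behind it. Array medians lay between 5.77 and 5.91 and values between 1.63 and 19.6, and a fold change is 2 to the power of a difference on this scale. Of 28846 probe sets, 19572 had 1 gene symbol in the platform annotation, 2634 had none and 6640 were controls. For 55 genes with several probe sets, the probe set with the highest mean signal was kept.

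Signals were fitted with limma 3.58.1 in R 4.3.3 (lmFit, contrasts.fit, eBayes) over the 4 groups, without covariates, and p-values were adjusted by Benjamini-Hochberg over 19505 genes for each of 5 contrasts: both media within each genotype, both genotypes within each medium, and the interaction of genotype with medium. A gene was called at an adjusted p under 0.05. The SE and p-values rest on the spread between the 4 biological replicates, pooled over all 4 groups and moderated over all genes. Arrays of groups outside a comparison therefore enter its SE and p-value. With 4 arrays per group the precision is limited. The fit was tested on simulated data with known changes between Camkk2-/- TCM and WT TCM. It recovered 67 of 100 genes changed by 1 log2 unit and 98 of 100 changed by 2, with 7 false calls. A gene that did not pass may therefore still differ by about 1 log2 unit. The simulated noise was independent between genes and held no shifts shared by the genes of an array.

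The members, gene lists and markers were chosen with earlier results of these data known. All members were named, with the value of every array for those called in at least 1 comparison, and for Aldoc and Hif1a, which were added after their values were seen. Of each other pathway list, up to 4 called genes with the smallest adjusted p per comparison were named. Promoter windows (300 bases) were taken from RefSeq, build GRCm38.p6, and searched with Python 3.11.15. Alternatives were each array left out, WT TCM replicates 1 and 3 left out together, the 8 arrays of a comparison alone, eBayes with trend and robust settings, array weights, repeated quantile normalization, median centring, the lowest 40% of genes left out, the mean over probe sets, a replicate block, a factor for replicates 1 and 2 against 3 and 4, and a threshold of 0.01.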

Additional observations from a re-analysis of the deposited data

Results flagged for a closer look

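In 136 groups of 4 arrays (the 33 genes and their mean in each group), a single array lay apart from the other 3 in 9 groups by Dixon's criterion, which flags about 1 in 20 groups by chance. Hk2 read 10.80 in Camkk2-/- TCM replicate 1, against 10.25 to 10.34 in the other arrays of its group. Aldoa read 17.40 in WT TCM replicate 1 (others 17.23 to 17.25) and 16.67 in Camkk2-/- TCM replicate 3 (others 17.19). Slc16a1 read 7.33 in Camkk2-/- RM replicate 4 (others 6.76 to 6.83), and Slc16a3 read 14.24 in WT RM replicate 4 (others 14.85 to 14.97). Egln1 read 13.59 in WT TCM replicate 2 (others 13.20 to 13.23). P4ha1 read 13.91 in Camkk2-/- TCM replicate 3 (others 14.23 to 14.29), still above every RM array of that genotype. Mif read 13.68 in Camkk2-/- RM replicate 4 (others 12.70 to 12.83) and 12.80 in WT TCM replicate 3 (others 13.37 to 13.45). Of these 9 values, 6 belong to Camkk2-/- RM replicate 4, Camkk2-/- TCM replicate 3 or WT TCM replicates 1 and 3. None of the 33 genes had a change with TCM that passed the test of a difference between genotypes.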

How the results depend on the processing

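The 3 calls of Pfkfb3, both calls of P4ha1 and the call of Bnip3 in Camkk2-/- BMDM held under all 27 alternatives, and none of the 14 calls reversed. Not every alternative could move a difference. Each of the 33 genes had 1 probe set, so the mean over probe sets left their signals unchanged. Leaving out an array of a group outside a comparison changed its SE and p-value and not its difference. The number raised by TCM in WT, 6, was 3 without WT TCM replicates 1 and 3, with repeated quantile normalization or with median centring, 2 at a threshold of 0.01, and 2 to 7 with 1 array left out. In Camkk2-/- BMDM the number raised, 6, was 3 at 0.01 and 4 to 8 with 1 array left out. The number lowered there, 0, was 2 in the fit of 8 arrays or with array weights (Pfkm and Aldoc), 1 without WT TCM replicates 1 and 3, with quantile normalization, centring, the low-signal filter, the replicate block or the factor for replicates 1 and 2 against 3 and 4, and 0 to 2 with 1 array left out. The number lower in Camkk2-/- TCM-BMDM, 1, was 3 with array weights or the low-signal filter, 2 with the factor for replicates 1 and 2 against 3 and 4, 0 without WT TCM replicates 1 and 3, with trend and robust settings, with centring or at 0.01, and 0 to 3 with 1 array left out. In RM it was 0 to 1 with 1 array left out. The other ranges with 1 array left out were 0.20 to 0.38 and 0.09 to 0.30 for the mean difference with TCM in WT and Camkk2-/- BMDM, -0.31 to -0.11 and -0.39 to -0.20 for Camkk2-/- against WT in RM and TCM, and -0.20 to 0.01 for the interaction. The cause of these changes was not tested. The sources used here do not say whether equal replicate numbers mark shared marrow, and the samples were not treated as paired. Deviations of same-numbered arrays correlated by -0.15 to 0.23. These values cannot exclude shared marrow, because they run over all 19505 genes, of which 10684 had a mean above background. The array of the same number had the highest correlation in 3 of 4 cases between RM and TCM in each genotype, and in 2 of 4 and 1 of 4 between genotypes in RM and TCM, a hint of pairing across media from the data and not from the design. With the replicate block, all genes called went from 567 to 576 and from 2242 to 2253 for TCM in WT and Camkk2-/- BMDM, from 144 to 173 and from 876 to 883 between genotypes in RM and TCM, and from 28 to 32 for the interaction, and Hk2 and Egln3 in WT and P4ha2 lost their calls. The SE of a difference between 2 groups in the 33 genes ran from 0.15 to 0.45, and that of the interaction from 0.21 to 0.63.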
